A study of Mus musculus with 14 samples.

Results

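The immunoglobulin heavy chain variable segments, the Ighv genes, were followed in spleen RNA of mice with psoriasis-like skin inflammation. Members were all rows of the deposited count table whose symbol begins with Ighv. The table gives none of them a symbol, so each was named from its Ensembl ID, and 113 of 22116 named entries qualified. The annotation used for the names, GENCODE mouse release 39, holds 183 Ighv genes, and its 70 Ighv pseudogenes have no row in the table. All 113 segments lie on the minus strand of chromosome 12 of GRCm39, between 113542124 and 115964081, on 1 side of the constant gene Ighm at 113382178 to 113386350. They fall into 16 families by sequence, and each has 294 to 480 exonic bases with a median of 353. Of the 113, 80 are annotated with 2 exons.

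A heavy chain is made by joining 1 V segment to a D and a J segment in the DNA of a developing B cell, after which the V segment's own promoter drives transcription of the joined gene. Each B cell therefore transcribes mainly 1 functional heavy chain gene, and the pool of Ighv RNA in a spleen reflects both which cells use which segment and how much RNA each cell makes. Plasma cells, which secrete antibody, hold far more immunoglobulin RNA per cell than resting B cells do. Families 11 and 12 are known from B-1 cells, whose antibodies bind phosphatidylcholine, and Ighv7-1 from antibodies to phosphorylcholine.

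RNA came from spleens of 14 wild-type female BALB/c mice aged 6 to 8 weeks, and all libraries carry the same batch label. Control mice had petrolatum, the vehicle, on dorsal skin and ears (replicates 2, 4 and 5), and are called untreated in the series' design text. Imiquimod activates Toll-like receptor 7 and was given as 5% cream once daily for 5 days, on dorsal skin in the imiquimod-dorsal group (replicates 2, 3, 4 and 5) or on the ear in the imiquimod-ear group (replicates 1, 3, 4 and 5). The IL-23-ear group (replicates 1, 2 and 3) received recombinant IL-23, the cytokine on which T helper 17 cells depend, at 1 µg per ear by intradermal injection every other day over 7 days, 4 injections in all. The libraries were poly(A)-selected and non-stranded, with paired reads of 150 bases. The labels call them biological replicates.

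Named genes held 28354674 to 40289411 counts per library, of which 17599 to 73897 fell on Ighv segments. Levels of genes and families are given as CPM, counts scaled to an equal library total after TMM, a scaling that sets most genes level between libraries. Where a library lists a segment at 0, the limit is 3 counts, 0.0754 to 0.0976 CPM depending on the library, and this limit covers counting error alone because the reads carry no molecular identifiers. Among genes with 1 to 10 counts, 58.2% to 60.9% had an even count, against 49.4% to 50.4% of genes with more, so a low count may not be that many single fragments, and this bears on the limit and on the folds set against it. The reference genome is of the C57BL/6 strain, whereas BALB/c mice carry a different set of V segments, so a count is a read assigned to the nearest segment of the reference, and whether a segment at 0 is absent from the BALB/c locus was not tested. B cell markers were present in all libraries: the summed level of 15 such genes was 5677 to 5863 CPM in control, 4347 to 5351 in imiquimod-dorsal, 5073 to 5298 in imiquimod-ear and 5516 to 5896 in IL-23-ear libraries.

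Sequence shows how alike the segments are. The exon sequences of 16 segments, in 8 pairs, were at least 98% identical to another Ighv segment, and 64 segments had a partner at 95% or more. The median identity to the closest other segment was 95.3%, the lowest 72.1%, and for 108 segments the closest one was of the same family. How reads that match several segments were counted is not given in the sources used here, so values of near-identical segments are uncertain. The last 300 bases of the V exons of Ighv2-9, which has the largest share of Ighv counts (chr12:113842716-113843015, minus strand, GRCm39), and of Ighv2-6-8 (chr12:113759758-113760057) are shown to display what separates close relatives. They differ at 11 of these bases, printed in capitals, and the whole V exons are 96.1% identical.
Ighv2-9: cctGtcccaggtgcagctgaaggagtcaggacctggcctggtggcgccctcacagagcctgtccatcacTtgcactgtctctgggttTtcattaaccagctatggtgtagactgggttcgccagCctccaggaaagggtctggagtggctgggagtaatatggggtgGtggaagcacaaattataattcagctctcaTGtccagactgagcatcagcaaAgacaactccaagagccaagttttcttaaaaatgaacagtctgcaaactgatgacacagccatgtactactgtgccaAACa
Ighv2-6-8: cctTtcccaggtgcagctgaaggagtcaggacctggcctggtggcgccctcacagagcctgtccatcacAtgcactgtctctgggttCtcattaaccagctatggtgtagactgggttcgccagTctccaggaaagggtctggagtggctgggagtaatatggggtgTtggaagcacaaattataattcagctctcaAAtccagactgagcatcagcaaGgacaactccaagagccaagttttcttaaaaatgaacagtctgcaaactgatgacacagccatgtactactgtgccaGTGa
With counts divided by exonic length, Ighv2-9 held a mean of 7.19% of the Ighv total and Ighv2-6-8 held 0.389%. The 2 members of family 11, Ighv11-2 (chr12:114011861-114012160) and Ighv11-1 (chr12:113945499-113945798), differ at 4 of the last 300 bases of the V exon, again in capitals, with an identity of 98.7% over the whole V exon.
Ighv11-2: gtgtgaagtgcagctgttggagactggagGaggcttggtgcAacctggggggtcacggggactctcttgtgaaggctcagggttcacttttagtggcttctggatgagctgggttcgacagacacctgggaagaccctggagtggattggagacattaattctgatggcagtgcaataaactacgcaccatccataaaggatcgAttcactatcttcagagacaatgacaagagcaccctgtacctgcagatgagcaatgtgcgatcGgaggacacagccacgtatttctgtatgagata
Ighv11-1: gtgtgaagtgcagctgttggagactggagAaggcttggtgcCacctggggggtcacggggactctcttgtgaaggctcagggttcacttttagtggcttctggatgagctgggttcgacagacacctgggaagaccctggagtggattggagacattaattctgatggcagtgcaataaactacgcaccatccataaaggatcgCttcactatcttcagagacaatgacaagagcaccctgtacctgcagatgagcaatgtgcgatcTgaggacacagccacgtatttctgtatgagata
On the same scale per length Ighv11-2 held 1.66% and Ighv11-1 held 0.0367%, a split that is uncertain for so close a pair.

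Recombination is directed by a signal in the germline sequence next to a V exon, the heptamer at which the RAG recombinase cuts. The junctions below give the last 12 bases of the V exon and the 39 bases after it for segments named in the results, on the minus strand of GRCm39, with the 7 bases after the V exon in capitals. They are shown because the RNA of a joined gene ends its V part here, and what follows in the germline is lost on joining.
Ighv2-9 (chr12:113842677-113842727): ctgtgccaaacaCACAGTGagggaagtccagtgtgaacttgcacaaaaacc
Ighv10-1 (chr12:114442586-114442636): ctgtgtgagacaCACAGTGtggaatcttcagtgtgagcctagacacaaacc
Ighv7-3 (chr12:114116761-114116811): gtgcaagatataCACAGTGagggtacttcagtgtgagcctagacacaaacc
Ighv11-2 (chr12:114011822-114011872): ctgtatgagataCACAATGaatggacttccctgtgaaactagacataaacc
Ighv1-9 (chr12:114547150-114547200): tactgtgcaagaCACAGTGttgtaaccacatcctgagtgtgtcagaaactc
Ighv1-61 (chr12:115322721-115322771): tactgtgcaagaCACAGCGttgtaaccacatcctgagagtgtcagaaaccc
Ighv1-82 (chr12:115916119-115916169): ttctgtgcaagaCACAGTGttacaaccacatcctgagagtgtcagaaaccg
Ighv15-2 (chr12:114528159-114528209): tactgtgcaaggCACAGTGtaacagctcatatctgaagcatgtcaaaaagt
The letters CACAGTG, read on the coding strand only, directly followed the V exon in 81 of 113 segments, 71.7%, against 0.923% of 21988 other entries of the table when the 7 bases after the annotated end were read the same way. Family 1 had them in 47 of 53 segments, whereas none of the 9 segments of family 8 and neither of family 11 did. The octamer ATGCAAAT, a motif of V promoters bound by Oct factors, lay within 250 bases before the start of 90 of 113 segments, 79.6%, and of 0.782% of the other entries. Its reverse complement ATTTGCAT was in 0 of 113 Ighv windows and in 1.10% of the others, so the octamer had 1 orientation here. It was found before 44 of 53 segments of family 1, 9 of 9 of family 8 and 0 of 9 of family 2. A match is a description of these letters in these windows. The V segments of the light chains were not counted apart from the other entries, so neither motif is shown to be particular to Ighv.

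The Ighv pool as a whole was larger after imiquimod on the ear. Ighv segments held 0.0692%, 0.0723% and 0.0611% of named counts in control replicates 2, 4 and 5. They held 0.182%, 0.214%, 0.131% and 0.151% in imiquimod-ear replicates 1, 3, 4 and 5. The lowest imiquimod-ear library stood above the highest control library, and the means were 0.169% ± 0.0363 (SD, n = 4) and 0.0675% ± 0.00576 (SD, n = 3), a ratio of 2.51. In spleen RNA, more cells of a type and more RNA per cell cannot be told apart.

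The pool differed less from control in the other treated groups. Imiquimod-dorsal libraries held 0.0933%, 0.0608%, 0.0739% and 0.0930% (mean 0.0802% ± 0.0158, n = 4), a range that overlapped control. IL-23-ear libraries held 0.0752%, 0.0570% and 0.0516% (mean 0.0613% ± 0.0124, n = 3), which also overlapped control. Imiquimod-ear was 2.11 times imiquimod-dorsal and IL-23-ear was 0.362 times imiquimod-ear, and neither pair of groups overlapped. The same controls serve all comparisons with control.

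The scale decides how the imiquimod-dorsal group reads. Haemoglobin genes held 6.69% to 10.4% of named counts there, against 1.24% to 4.17% in control, 0.751% to 4.89% in imiquimod-ear and 0.343% to 1.42% in IL-23-ear libraries. With these genes left out of the total, Ighv segments held 0.0876% ± 0.0163 in imiquimod-dorsal and 0.0693% ± 0.00642 in control libraries, a ratio of 1.26 with ranges that still overlapped. On TMM-scaled CPM the summed Ighv level was 629, 656 and 556 in control and 1067, 729, 843 and 1030 in imiquimod-dorsal libraries, which did not overlap. It was 1797, 2123, 1317 and 1386 in imiquimod-ear and 696, 551 and 490 in IL-23-ear libraries. The group means were 614 ± 52.0, 917 ± 159, 1656 ± 377 and 579 ± 106 CPM, and the ratios to control were 1.49 for imiquimod-dorsal, 2.70 for imiquimod-ear and 0.943 for IL-23-ear, the last with overlapping ranges.

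**Figure D1:**
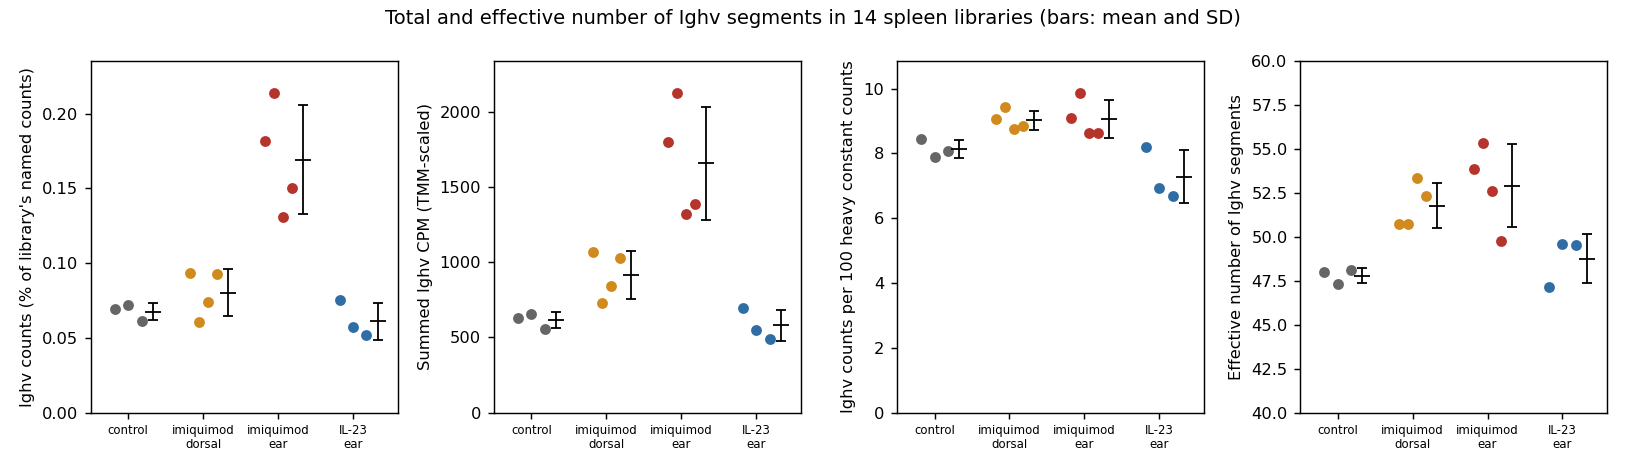
The 4 panels show, for each library (points) with group mean and SD (bars), the Ighv percent of named counts, the summed TMM-scaled CPM, Ighv counts per 100 heavy chain constant counts, and the effective number of segments, whose axis runs from 40 to 60. The imiquimod-ear libraries stand above control in every panel, and the IL-23-ear libraries overlap control in every panel.

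Other parts of the antibody genes were higher along with Ighv. The constant genes of the heavy chain, 8 in all, held 0.831% ± 0.0802 of counts in control and 1.86% ± 0.286 in imiquimod-ear libraries, a ratio of 2.24. The 100 Igkv segments of the kappa light chain held 0.263% ± 0.0190 and 0.606% ± 0.118, a ratio of 2.30, and the heavy chain J segments stood at 2.41 times control. Ighv counts per 100 heavy constant counts were 8.43, 7.89 and 8.08 in control, 9.05, 9.42, 8.75 and 8.86 in imiquimod-dorsal, 9.09, 9.86, 8.63 and 8.64 in imiquimod-ear and 8.21, 6.93 and 6.70 in IL-23-ear libraries. Relative to the constant genes, both imiquimod groups were thus above control with no overlap (means 9.02 ± 0.294 and 9.05 ± 0.579 against 8.14 ± 0.274), while IL-23-ear overlapped control at 7.28 ± 0.814.

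The Ighv RNA was spread over many segments, with a higher effective number of them after imiquimod. The effective number of segments, the exponential of the Shannon entropy of their shares, says how many equally used segments would give the same diversity. It was 48.0, 47.3 and 48.1 in control, 50.7, 50.7, 53.4 and 52.3 in imiquimod-dorsal, 53.9, 55.3, 52.6 and 49.8 in imiquimod-ear and 47.2, 49.6 and 49.5 in IL-23-ear libraries. Both imiquimod groups lay above control with no overlap (means 51.8 ± 1.30 and 52.9 ± 2.37 against 47.8 ± 0.435), and IL-23-ear, at 48.8 ± 1.38, overlapped control and lay below every imiquimod-ear library. That last gap was narrow, 49.6 against 49.8, and was absent with another measure, the inverse Simpson index. The effective number counts both how many segments are used and how evenly. Pielou's evenness, the entropy over its maximum for the segments with counts, overlapped between all groups: it was 0.856 to 0.861 in control, 0.856 to 0.873 in imiquimod-dorsal, 0.856 to 0.877 in imiquimod-ear and 0.856 to 0.872 in IL-23-ear libraries.

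The leading segments held a smaller share after imiquimod. The 10 largest held 43.0%, 42.5% and 42.0% of Ighv counts in control, 38.8%, 40.3%, 37.9% and 39.1% in imiquimod-dorsal, 37.3%, 37.1%, 38.8% and 40.1% in imiquimod-ear and 44.9%, 41.7% and 40.4% in IL-23-ear libraries. Both imiquimod groups were below control, and IL-23-ear was not apart from it. Between 88 and 100 segments had counts in a library, and deeper Ighv pools show more of them. With each library thinned in expectation to the lowest Ighv total, 17599 counts, 89.7 to 91.5 segments were expected in control, 90.7 to 96.0 in imiquimod-dorsal, 93.0 to 97.4 in imiquimod-ear and 88.0 to 92.9 in IL-23-ear libraries, so that imiquimod-ear remained above control at equal depth.

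A few segments led in nearly every spleen. Ighv2-9 had the largest share in 12 libraries, at 6.04% to 8.28% of Ighv counts. Ighv10-1 led in control 4 at 7.64% and in IL-23-ear 3 at 6.17%, where Ighv2-9 stood next at 6.16%. Per exonic base the order of the mean shares was Ighv2-9, Ighv10-1, Ighv1-9, Ighv6-6, Ighv2-2, Ighv7-3, Ighv3-6, Ighv1-4, Ighv6-3 and Ighv3-8. Their mean shares of Ighv counts ran from 7.09% for Ighv2-9 and 5.59% for Ighv10-1 to 3.55% for Ighv1-9 and 2.92% for Ighv6-3. In imiquimod-ear replicates 1 and 3, Ighv1-9 instead of Ighv10-1 took the next place after Ighv2-9, at 4.28% and 4.43%.

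Usage profiles were alike between libraries. Over the 87 segments with at least 140 counts in all, Spearman's rho between the shares of control libraries was 0.956 to 0.969. Within imiquimod-dorsal it was 0.949 to 0.971, within IL-23-ear 0.942 to 0.947, and within imiquimod-ear 0.885 to 0.964. Control and imiquimod-ear libraries reached down to 0.865, the lowest value between any of the groups compared. These values are across segments, which share a library and a depth, and are a description.

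By family, the share of family 1 was larger after imiquimod. Family 1, with 53 of the 113 segments, is the largest mouse V family and fills the part of the cluster away from Ighm. It held 21.6%, 22.1% and 23.6% of Ighv counts in control and 27.5%, 27.6%, 28.2% and 27.6% in imiquimod-dorsal libraries. It held 32.8%, 33.1%, 27.8% and 25.4% in imiquimod-ear replicates 1, 3, 4 and 5, and 23.6%, 23.8% and 24.4% in IL-23-ear libraries. Both imiquimod groups stood above control with no overlap (means 27.7% ± 0.313 and 29.8% ± 3.81 against 22.4% ± 1.07), whereas IL-23-ear, at 23.9% ± 0.407, overlapped control and lay below every imiquimod-ear library. The summed level of the family was 137 ± 6.76 CPM in control, 254 ± 42.7 in imiquimod-dorsal, 503 ± 172 in imiquimod-ear and 138 ± 23.2 in IL-23-ear libraries. Shares of a whole are tied, so a larger share of 1 family leaves less for the others.

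Family 1 was nevertheless used less than its number of segments would give. It has 46.9% of the segments and held 26.4% of Ighv counts as a mean over all libraries, or 26.7% with counts divided by exonic length. Family 2, with 9 segments or 7.96%, held 16.9% of counts and 17.1% per length, which is more than its number.

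The share of family 7 was smaller after imiquimod. It held 7.27%, 6.48% and 7.23% of Ighv counts in control, 4.01%, 4.45%, 4.27% and 4.37% in imiquimod-dorsal, 3.15%, 2.78%, 4.92% and 5.04% in imiquimod-ear and 6.47%, 6.89% and 4.98% in IL-23-ear libraries. Both imiquimod groups were below control with no overlap (means 4.27% ± 0.189 and 3.97% ± 1.18 against 6.99% ± 0.447), and IL-23-ear overlapped control at 6.11% ± 1.00. The level of the family followed another order: its summed CPM was 42.8 ± 2.80 in control, 39.0 ± 5.85 in imiquimod-dorsal and 62.5 ± 5.97 in imiquimod-ear libraries. It was 35.8 ± 10.5 in IL-23-ear libraries. Ighv7-3 carries most of the family, with 4.68% ± 0.404 of Ighv counts in control, 2.81% ± 0.346 in imiquimod-dorsal, 2.54% ± 0.780 in imiquimod-ear and 4.30% ± 0.687 in IL-23-ear libraries.

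The share of family 11, a family of B-1 cells, was lower than control in all 3 treated groups. It held 3.37%, 3.22% and 3.13% of Ighv counts in control. It held 1.81%, 1.43%, 1.38% and 1.86% in imiquimod-dorsal, 1.54%, 1.57%, 2.11% and 2.31% in imiquimod-ear and 2.27%, 1.41% and 2.21% in IL-23-ear libraries, and no treated library reached a control library. The means were 3.24% ± 0.122, 1.62% ± 0.253, 1.88% ± 0.385 and 1.96% ± 0.480. The summed CPM differed in direction between treatments: it was 19.9 ± 2.18 in control, 15.1 ± 4.79 in imiquimod-dorsal, 30.2 ± 2.91 in imiquimod-ear and 11.5 ± 4.05 in IL-23-ear libraries.

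Family 12, also known from B-1 cells and present here only as Ighv12-3, behaved otherwise. It held 1.23%, 1.28% and 0.783% of Ighv counts in control and 0.375%, 0.272%, 0.231% and 0.393% in imiquimod-dorsal libraries, with no overlap. In imiquimod-ear libraries it held 1.14%, 0.256%, 0.819% and 1.44%, and in IL-23-ear libraries 1.50%, 0.502% and 1.36%, both overlapping control with a wide spread.

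**Figure D2:**
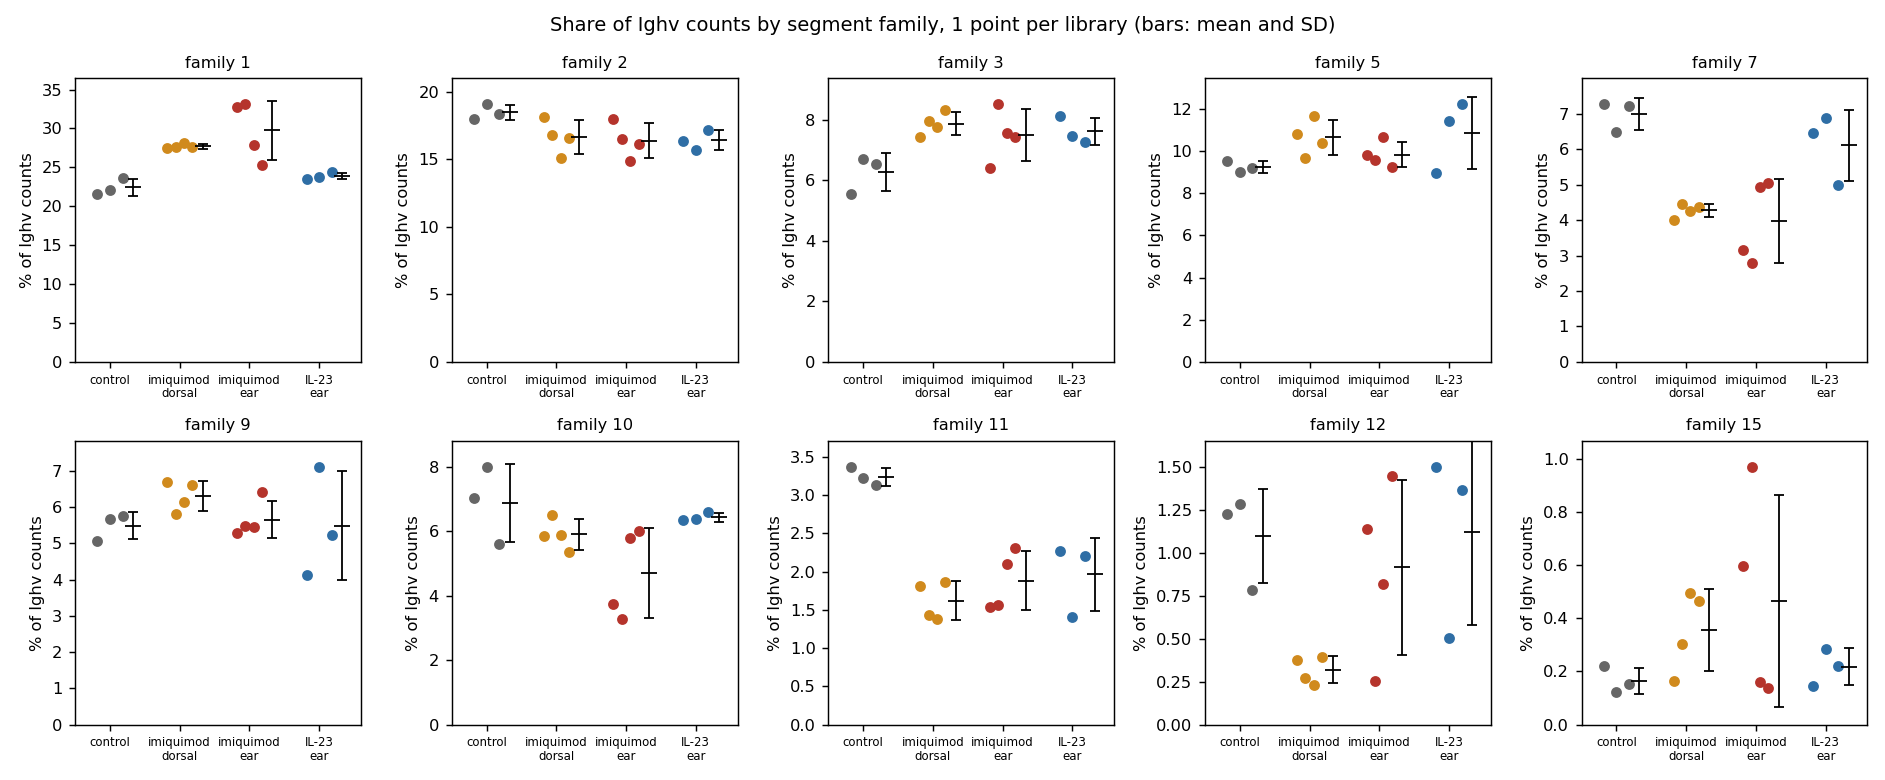
Percent of Ighv counts held by families 1, 2, 3, 5, 7, 9, 10, 11, 12 and 15 in each library (points) with group means. Family 1 is higher and family 7 lower in both imiquimod groups than in control, and family 11 is lower than control in all 3 treated groups.

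Smaller shifts were seen in other families. Family 2 held 18.5% ± 0.546 in control and 16.4% ± 1.30 in imiquimod-ear and 16.4% ± 0.750 in IL-23-ear libraries, both below control with no overlap. Family 3 held 6.26% ± 0.626 in control and 7.87% ± 0.373 in imiquimod-dorsal and 7.61% ± 0.446 in IL-23-ear libraries, both above control. Family 5 (10.7% ± 0.830 against 9.24% ± 0.279) and family 9 (6.31% ± 0.407 against 5.49% ± 0.382) stood above control in imiquimod-dorsal libraries. Family 10 was split within imiquimod-ear: it held 3.74% and 3.29% in replicates 1 and 3 and 5.78% and 6.00% in replicates 4 and 5. The same pair, replicates 1 and 3, had the highest shares of family 1 and the lowest of family 7. Single libraries stood out for family 6, at 11.5% in IL-23-ear 1, and for family 15, at 0.970% in imiquimod-ear 3.

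Along the cluster, the part nearest to Ighm held less of the pool in all treated groups. The 38 segments nearest to Ighm, which include families 2, 5, 7 and 11, held 52.3%, 52.4% and 54.0% of Ighv counts in control. They held 51.0%, 48.1%, 47.8% and 48.5% in imiquimod-dorsal, 47.4%, 45.5%, 47.4% and 47.2% in imiquimod-ear and 45.7%, 50.7% and 51.4% in IL-23-ear libraries, all below control. The 38 segments farthest from Ighm, all of families 1 and 8, held 12.4% ± 0.817 in control, 14.2% ± 0.243 in imiquimod-dorsal, 16.1% ± 2.27 in imiquimod-ear and 12.7% ± 0.829 in IL-23-ear libraries. At the far end both imiquimod groups were above control with no overlap, and IL-23-ear overlapped it.

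Single segments were tested with edgeR's quasi-likelihood test over all 15159 genes that passed a filter on low counts, and p-values were adjusted over all of them. Of the 113 segments 90 passed the filter, 79 had counts in all 14 libraries, and 5 (Ighv5-16, Ighv16-1, Ighv5-12-4, Ighv2-7 and Ighv1-49) had none in any. The 23 segments that did not pass were below 1 CPM in every library, apart from Ighv1-39, Ighv9-2, Ighv8-9 and Ighv8-13, which each exceeded it in 1 library.

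In imiquimod-ear libraries 75 of the 90 segments were higher than control and 0 were lower, beside 14.3% and 6.98% of all genes tested. The median log2 difference over the 90 was 1.57, against 0.02 over all genes, a median that TMM scaling keeps near 0, and 86 were positive. Family 1 had 36 of 41 tested segments higher with a median of 1.87, and the other families 39 of 49 with a median of 1.32. No segment of families 11 and 12 passed the test, and 1 of 3 in family 7 did. With each library of these groups left out in turn, 55 to 73 segments were higher.

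In imiquimod-dorsal libraries 43 of the 90 segments were higher than control and 0 were lower, but 32.3% of all genes tested were higher there too and 27.6% lower. The median log2 difference was 0.72, where the median over all genes was near 0, and 78 of the 90 were positive. TMM scaling itself keeps the median over all genes near 0. On plain shares of counts, imiquimod-dorsal held 1.19 times the Ighv share of control, with overlapping ranges, and single segments were not tested on that scale. Family 1 contributed 23 of 41 segments, with a median of 0.96, and the other families 20 of 49, with a median of 0.52. None passed in families 4, 6, 7, 10, 11, 12 and 15. With each library of these groups left out in turn, 29 to 46 segments were called. Without control 2, 29 of 94 tested segments were higher, beside 8023 of 15367 genes called in either direction. Without control 4, 29 of 94 were higher, beside 8042 of 15383 genes. Without control 5, 28 of 93 were higher and 1 lower, beside 8724 of 15376 genes. The share of all genes called higher was not counted for these runs, so an excess of Ighv segments is not shown there.

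After IL-23 no segment differed from control by edgeR's quasi-likelihood test, which called 0.0528% of all genes. DESeq2 and limma-voom also called 0 segments, and at an unadjusted p under 0.05 edgeR counted 1 higher and 4 lower. Those were Ighv1-34 (higher) and Ighv11-2, Ighv2-3, Ighv14-2 and Ighv14-3 (lower), named here because of this count. Ighv1-34 had 0 counts in every control library and passed the filter through the treated libraries, so no rise is read from it. The median log2 difference was -0.01, with 41 of 90 positive. The CPM ranges did not overlap for 2 segments on the higher and 9 on the lower side, beside 9.75% and 6.98% of all genes.

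Compared directly, the 2 sites of imiquimod differed. In imiquimod-ear against imiquimod-dorsal 54 of 90 segments were higher and 0 lower, beside 23.3% and 24.5% of all genes, and the median log2 difference was 0.85. In IL-23-ear against imiquimod-ear 72 of 90 were lower and 0 higher, beside 10.2% and 7.05%, with a median of -1.60. Without imiquimod-dorsal 3 the count between the imiquimod groups was 36.

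**Figure D3:**
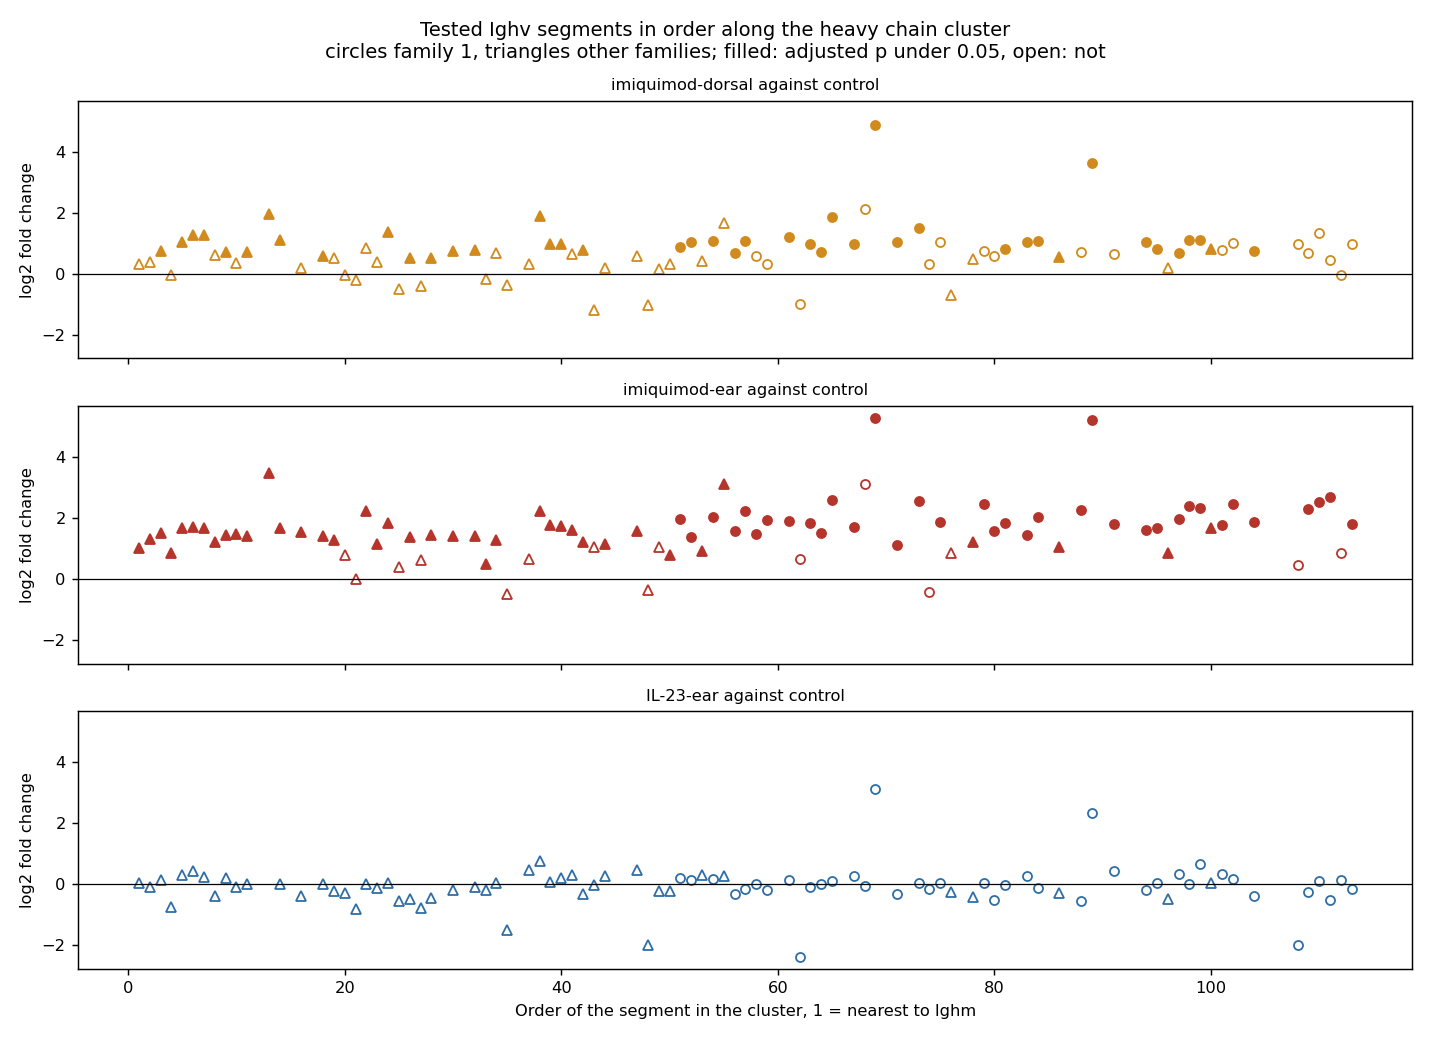
Log2 difference from control of each tested segment in its order along the cluster, with 1 panel per treated group; circles are family 1, triangles other families, and filled symbols have an adjusted p under 0.05 by edgeR. Ighv1-34 and Ighv2-9-1, at 0 in control, are drawn at lower bounds, and Ighv2-9-1 is left out for IL-23-ear, where it is also at 0. In the imiquimod-ear panel 86 of 90 points lie above 0, and in the IL-23-ear panel 41 do.

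The segments with the largest shares of Ighv counts show the pattern. Ighv2-9 was at 49.7, 46.5 and 43.3 CPM in control, 88.3, 50.8, 50.9 and 76.9 in imiquimod-dorsal, 126, 143, 83.3 and 102 in imiquimod-ear and 50.9, 37.8 and 30.2 in IL-23-ear libraries. It rose in imiquimod-ear libraries by a log2 difference of 1.29 ± 0.24 (SE; edgeR's adjusted p = 0.00503) and was not called in imiquimod-dorsal (0.52 ± 0.24, adjusted p = 0.0770) or IL-23-ear (-0.23 ± 0.25, adjusted p = 0.858). It was also higher in imiquimod-ear than in imiquimod-dorsal libraries, by 0.76 ± 0.22 (adjusted p = 0.0121), although these ranges overlapped.

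Ighv10-1 moved less. Its CPM was 42.4, 50.1 and 29.7 in control, 59.9, 44.5, 47.2 and 53.2 in imiquimod-dorsal, 63.9, 66.2, 73.4 and 78.8 in imiquimod-ear and 41.3, 33.2 and 30.2 in IL-23-ear libraries. The imiquimod-ear libraries were above control by a log2 difference of 0.79 ± 0.17 (edgeR's adjusted p = 0.00629). In IL-23-ear against imiquimod-ear it fell by 1.02 ± 0.17 on the log2 scale (adjusted p = 0.00230).

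Ighv1-9, of family 1, stood among the leaders after imiquimod on the ear. Its CPM was 22.7, 23.0 and 19.1 in control, 38.5, 30.0, 34.2 and 34.0 in imiquimod-dorsal, 77.0, 94.0, 46.6 and 39.9 in imiquimod-ear and 18.4, 16.0 and 16.7 in IL-23-ear libraries. It was higher than control in imiquimod-ear libraries by 1.58 ± 0.25 (edgeR's adjusted p = 0.00268), and higher in imiquimod-ear than in imiquimod-dorsal libraries by 0.91 ± 0.22 (adjusted p = 0.00436). The difference of imiquimod-dorsal from control, 0.66 ± 0.24 (adjusted p = 0.0299), was lost when any control library was left out (adjusted p = 0.0747, 0.0696 and 0.122 without replicates 2, 4 and 5), as well as without imiquimod-dorsal 2 (0.0670) or 4 (0.0502).

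Ighv3-6 and Ighv1-4 rose after imiquimod at both sites. Ighv3-6 was at 15.3, 19.5 and 16.9 CPM in control, 34.1, 33.7, 29.5 and 37.6 in imiquimod-dorsal, 56.0, 87.1, 40.6 and 48.8 in imiquimod-ear and 20.2, 18.5 and 15.0 in IL-23-ear libraries. Its log2 difference from control was 0.97 ± 0.21 in imiquimod-dorsal (edgeR's adjusted p = 0.00166) and 1.75 ± 0.22 in imiquimod-ear libraries (adjusted p = 0.00101). Ighv1-4 was at 14.0, 14.2 and 16.5 CPM in control, 32.3, 21.0, 25.3 and 31.4 in imiquimod-dorsal, 69.3, 74.6, 48.3 and 38.8 in imiquimod-ear and 19.5, 13.7 and 18.1 in IL-23-ear libraries. For this family 1 segment the differences were 0.88 ± 0.22 (adjusted p = 0.00413) and 1.95 ± 0.23 (adjusted p = 0.000824). Neither gene lost these calls under any alternative run, and the 3 groups of control, imiquimod-dorsal and imiquimod-ear libraries did not overlap for either.

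Ighv7-3, the main segment of family 7, was the least changed of the leaders. Its CPM was 29.4, 28.0 and 28.2 in control, 25.0, 23.2, 24.0 and 29.5 in imiquimod-dorsal, 32.0, 41.3, 41.4 and 45.3 in imiquimod-ear and 28.3, 28.0 and 18.4 in IL-23-ear libraries. The log2 difference of imiquimod-ear from control was 0.49 ± 0.15 (edgeR's adjusted p = 0.0331). That call was lost without any 1 control library (adjusted p = 0.107, 0.136 and 0.0887 without replicates 2, 4 and 5) and without imiquimod-ear 3, 4 or 5 (0.0910, 0.0689 and 0.0725). Imiquimod-ear exceeded imiquimod-dorsal by 0.65 ± 0.14 (adjusted p = 0.00156), which held under every alternative run.

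The other leaders, Ighv6-6, Ighv2-2, Ighv3-8 and Ighv6-3, were called in imiquimod-ear against control and not in imiquimod-dorsal or IL-23-ear against control. Ighv6-6 was at 20.5, 21.2 and 15.4 CPM in control, 28.3, 22.6, 25.6 and 38.2 in imiquimod-dorsal, 49.3, 55.7, 49.5 and 70.3 in imiquimod-ear and 39.6, 22.6 and 16.3 in IL-23-ear libraries. Its log2 difference from control in imiquimod-ear was 1.56 ± 0.28 (edgeR's adjusted p = 0.00411), and those of the other 3 were 1.32 for Ighv2-2, 1.59 for Ighv3-8 and 1.15 for Ighv6-3. Ighv2-2 lost its call without control 2 (adjusted p = 0.0524), and Ighv6-3 lost its call without any 1 control library and without imiquimod-ear 1, 3 or 5 (adjusted p = 0.0527 to 0.115).

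Ighv1-82 and Ighv12-3 had the largest log2 differences between the imiquimod groups among called segments whose groups did not overlap and whose mean log2 CPM was 1 or more. Ighv1-82, of family 1, lies near the far end of the cluster. It was at 2.57, 5.15 and 2.07 CPM in control, 4.34, 5.41, 3.41 and 4.62 in imiquimod-dorsal, 14.0, 31.6, 8.24 and 30.5 in imiquimod-ear and 2.64, 2.17 and 1.86 in IL-23-ear libraries. Every imiquimod-ear library was above all others. The log2 difference of imiquimod-ear was 2.70 ± 0.46 from control (edgeR's adjusted p = 0.00367) and 2.24 ± 0.41 from imiquimod-dorsal (adjusted p = 0.000695), and IL-23-ear fell by 3.24 ± 0.48 against imiquimod-ear (adjusted p = 0.00185).

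Ighv12-3 was low in one imiquimod group and high in the other. Its CPM was 7.71, 8.41 and 4.35 in control, 4.00, 1.98, 1.95 and 4.05 in imiquimod-dorsal, 20.5, 5.43, 10.8 and 20.0 in imiquimod-ear and 10.4, 2.77 and 6.68 in IL-23-ear libraries. It was below control in every imiquimod-dorsal library, but that difference, -1.18 ± 0.52, did not pass (edgeR's adjusted p = 0.0653), nor did the difference of imiquimod-ear, 1.06 ± 0.52 (adjusted p = 0.164). The difference between the imiquimod groups, 2.24 ± 0.49, did (adjusted p = 0.00276).

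Ighv1-15 and Ighv1-50, both of family 1, rose in imiquimod-ear libraries and were not called in imiquimod-dorsal libraries. Ighv1-15 was at 4.81, 4.13 and 2.85 CPM in control, 5.14, 3.68, 4.98 and 5.73 in imiquimod-dorsal, 13.3, 23.7, 10.6 and 12.1 in imiquimod-ear and 4.59, 3.19 and 2.56 in IL-23-ear libraries. Its log2 difference was 1.92 ± 0.30 from control (edgeR's adjusted p = 0.00237) and 1.61 ± 0.27 from imiquimod-dorsal (adjusted p = 0.000294). For Ighv1-50 they were 2.46 ± 0.41 (adjusted p = 0.00287) and 1.71 ± 0.35 (adjusted p = 0.00131). Ighv1-15 has a partner at 98% identity or more, Ighv1-23, so its value is uncertain.

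Several of the largest rises rested on few libraries. Ighv15-2, the sole member of its family, was at 1.38, 0.800 and 0.854 CPM in control, 1.73, 2.21, 4.16 and 4.81 in imiquimod-dorsal, 10.7, 20.6, 2.10 and 1.89 in imiquimod-ear and 1.02, 1.57 and 1.09 in IL-23-ear libraries. Replicates 1 and 3 of imiquimod-ear were thus far above replicates 4 and 5. Its log2 difference of 3.11 ± 0.80 from control (edgeR's adjusted p = 0.0179) was 2.23 without imiquimod-ear 3, and the call was lost without any 1 control library (adjusted p = 0.0584, 0.0841 and 0.0512 without replicates 2, 4 and 5). Ighv1-80, Ighv1-42 and Ighv1-59 were likewise highest in imiquimod-ear 3, at 11.6, 9.83 and 9.45 CPM. Their log2 differences from control in imiquimod-ear libraries were 2.29, 2.55 and 2.26, and without imiquimod-ear 3 they were 1.58 for Ighv1-80 and 1.75 for Ighv1-42. Ighv1-80 and Ighv1-42 each lost the call without control 2 (adjusted p = 0.0825 and 0.0640) or control 4 (0.0516 and 0.0651), Ighv1-80 also without control 5 (0.0562). With limma-voom the calls of Ighv15-2, Ighv1-80 and Ighv1-42 were lost too (limma-voom's adjusted p = 0.152, 0.0728 and 0.0642).

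Ighv3-5 rose at both imiquimod sites. Its CPM was 2.23, 3.33 and 1.99 in control, 15.9, 4.55, 8.00 and 8.48 in imiquimod-dorsal, 14.6, 12.7, 7.76 and 11.5 in imiquimod-ear and 5.90, 2.31 and 4.37 in IL-23-ear libraries. The log2 differences from control were 1.88 ± 0.42 (edgeR's adjusted p = 0.00182) and 2.21 ± 0.42 (adjusted p = 0.00499). Ighv2-4, which is at least 98% identical to Ighv2-2 and so uncertain, had differences of 1.28 in imiquimod-dorsal and 1.69 in imiquimod-ear libraries. Its calls were lost without control 2 or 5 at either site (adjusted p = 0.0562 and 0.0859 in imiquimod-dorsal, 0.0613 and 0.0511 in imiquimod-ear), without imiquimod-dorsal 4 (0.0716) and, in imiquimod-ear, without control 4 (0.0523).

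**Figure D4:**
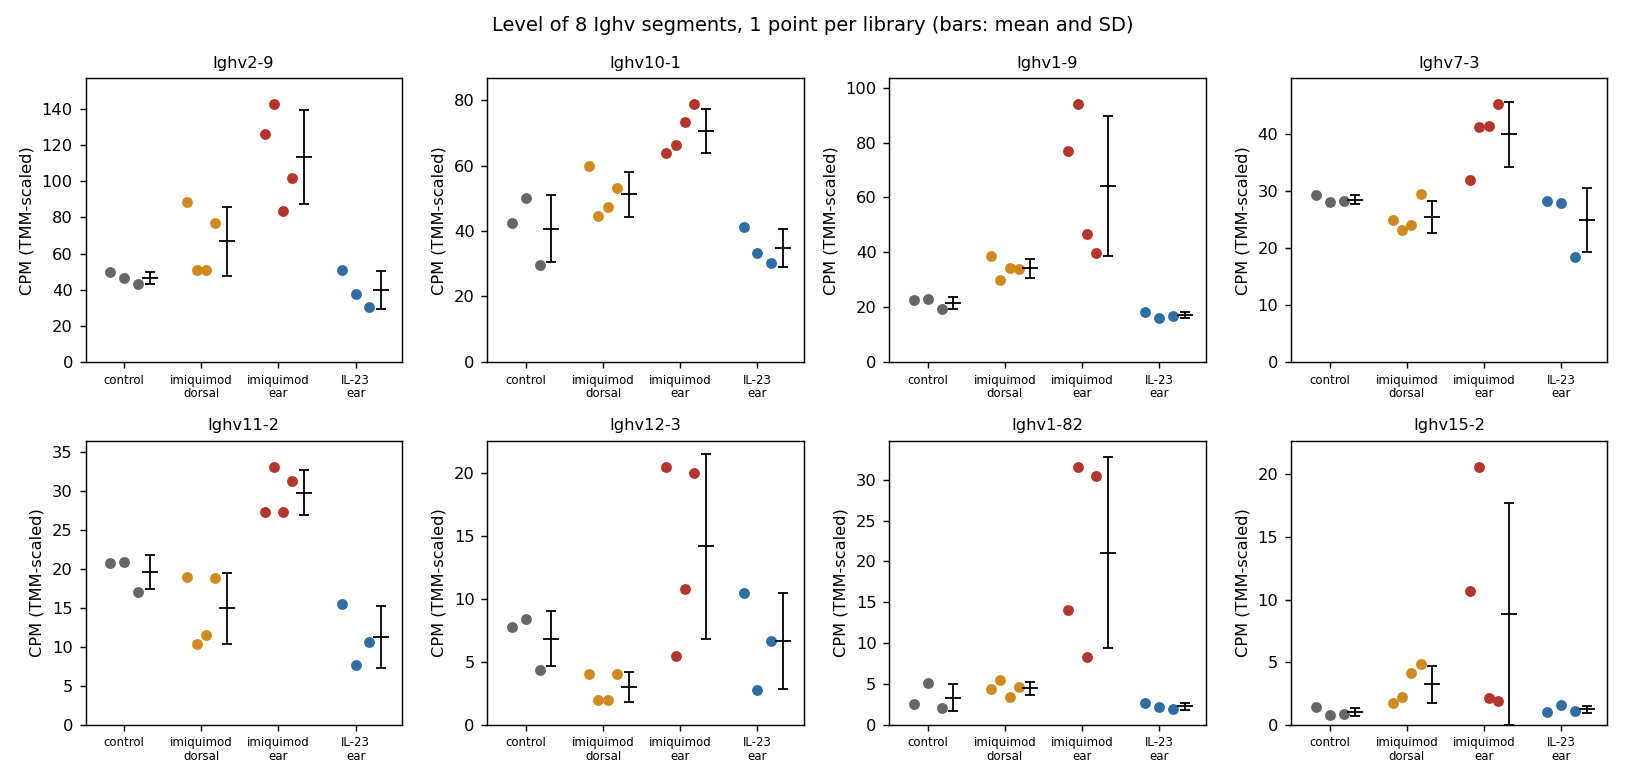
TMM-scaled CPM of Ighv2-9, Ighv10-1, Ighv1-9, Ighv7-3, Ighv11-2, Ighv12-3, Ighv1-82 and Ighv15-2 in each library (points) with group means and SD. For Ighv1-82 all 4 imiquimod-ear libraries, from 8.24 to 31.6 CPM, stand above every other library, while for Ighv15-2 replicates 1 and 3 of imiquimod-ear stand far above replicates 4 and 5.

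Ighv11-2 and Ighv7-1 were looked at for their known antibodies, after their values had been seen. Ighv11-2 was at 20.8, 20.9 and 17.1 CPM in control, 19.0, 10.4, 11.4 and 18.8 in imiquimod-dorsal, 27.3, 33.1, 27.3 and 31.2 in imiquimod-ear and 15.5, 7.64 and 10.6 in IL-23-ear libraries. No difference from control passed edgeR's test: the log2 values were -0.39 (adjusted p = 0.176), 0.60 (0.0925) and -0.80 (0.401). How reads were split between it and the near-identical Ighv11-1 is not known. Imiquimod-ear was higher than imiquimod-dorsal by 1.00 ± 0.22 (adjusted p = 0.00276), and IL-23-ear fell by 1.40 ± 0.25 on the log2 scale against imiquimod-ear (adjusted p = 0.00352). Ighv7-1 was at 13.8, 11.8 and 9.61 CPM in control and 21.6, 17.6, 19.5 and 21.1 in imiquimod-ear libraries, a log2 difference of 0.76 ± 0.28 that did not pass (adjusted p = 0.0710). Ighv2-3, another segment near Ighm chosen after its values were seen, took 2.40%, 2.51% and 3.95% of Ighv counts in control and 1.57% to 2.15% in every treated library.

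Some segments were present in some spleens and at 0 in others. In all, 12 segments had at least 30 counts in 1 library and 0 in another, 6 of them of family 1 and 3 of family 8, and they are described for that reason, after their values were seen. Ighv9-2 had 131 counts in imiquimod-ear 3 and 0 in the other 13 libraries, and Ighv1-39 had 53 counts in imiquimod-ear 4 and 0 in all others. Ighv8-13 had 307 counts and Ighv8-9 had 155 in imiquimod-ear 3, against at most 13 and 19 elsewhere; these are at least 98% identical to each other, so the same reads may have been divided between them. Ighv7-2 went the other way, with 58 to 140 counts in 12 libraries and 0 in imiquimod-ear 3 and IL-23-ear 3. Imiquimod-ear 3 thus held the single highest count for Ighv9-2, Ighv8-9, Ighv8-13, Ighv1-61, Ighv1-34, Ighv2-9-1 and Ighv8-6. These counts are not scaled, and imiquimod-ear 3 also had the largest Ighv total of all libraries, 73897 counts.

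Others of these segments had few or no counts in control libraries. Ighv1-34 had 0 counts in all 3 control libraries, 92, 84, 73 and 67 in imiquimod-dorsal, 177, 213, 80 and 0 in imiquimod-ear and 0, 39 and 39 in IL-23-ear libraries. Set against the floor of 3 counts per control library, the means were at least 29.2-fold in imiquimod-dorsal and 38.9-fold in imiquimod-ear libraries. Imiquimod-ear 5 was nonetheless at 0. That floor covers counting error alone, so no rise is read from these bounds. Ighv2-9-1 had 0 counts in control and IL-23-ear libraries, 12, 0, 11 and 19 in imiquimod-dorsal and 38, 43, 24 and 31 in imiquimod-ear libraries. The imiquimod-ear mean was at least 11.0-fold the control floor, and no rise is read from it either. Ighv1-61 had 15, 0 and 0 counts in control, 95, 50, 45 and 34 in imiquimod-dorsal, 154, 432, 110 and 36 in imiquimod-ear and 35, 41 and 0 in IL-23-ear libraries. The control group thus rests on 1 library. No single test is printed for these 3 segments, because they were picked for their zeros and passed the filter on low counts through the treated libraries. They are nevertheless among the 90 segments tested, so their results enter the counts of calls above. The calls of Ighv1-61 against control in both imiquimod groups are also part of the 60 calls of named segments. A near-identical partner of Ighv1-61, Ighv1-52, adds to its uncertainty.

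**Figure D5:**
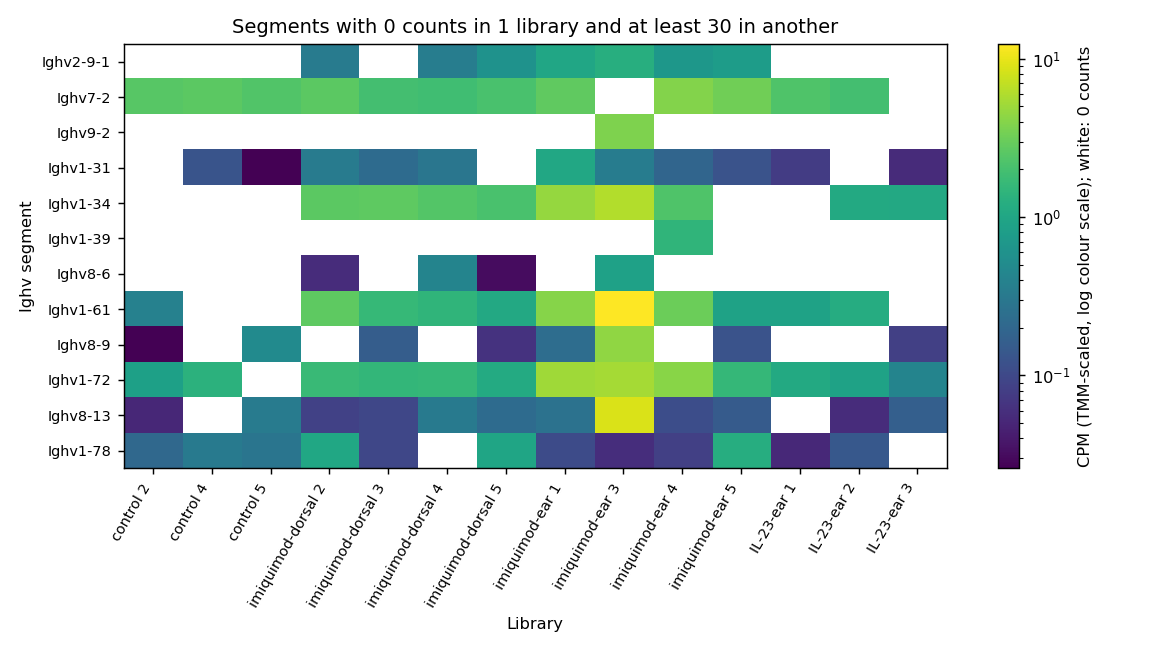
CPM on a logarithmic colour scale of the 12 segments with at least 30 counts in 1 library and 0 in another, in all 14 libraries; white is 0. Ighv9-2 and Ighv1-39 are coloured in 1 library each, and Ighv1-34 and Ighv2-9-1 are white in all 3 control libraries.

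Genes that act on or with the heavy chain locus give the setting, from lists chosen by function. Of the 8 heavy chain constant genes 5 rose and 1 fell in each imiquimod group against control, and 0 passed in IL-23-ear libraries. Of all genes tested 32.3% rose and 27.6% fell in imiquimod-dorsal and 14.3% and 6.98% in imiquimod-ear libraries, and the counts of every list here stand beside these shares. Ighm, the constant gene of IgM, was at 6148, 6827 and 5661 CPM in control and 17637, 18992, 13731 and 14573 in imiquimod-ear libraries, a log2 difference of 1.39 ± 0.16 (edgeR's adjusted p = 0.000780), against 0.43 ± 0.15 in imiquimod-dorsal (adjusted p = 0.0278) and 0.09 ± 0.16 in IL-23-ear (adjusted p = 0.919). Ighd, transcribed with Ighm in naive B cells, fell by 0.32 in imiquimod-dorsal and by 0.49 in imiquimod-ear libraries on the log2 scale. The switched Ighg2b rose by 4.02 and 3.18, and the entry named Ighg2c, whose isotype is uncertain because BALB/c mice carry IgG2a, by 5.47 and 6.16.

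Genes of V(D)J joining put the segments together in the first place. Of 13 such genes 11 were tested, without Rag1 and Rag2, whose levels were too low. In imiquimod-dorsal libraries 4 rose and 1 fell, in imiquimod-ear libraries 3 rose and 0 fell, and in IL-23-ear libraries 0 passed. The 5 called in imiquimod-dorsal are no larger a part of the list than the called genes are of all genes. The summed level of the list was 529 to 718 CPM in control, 1687 to 1922 in imiquimod-dorsal, 714 to 1279 in imiquimod-ear and 568 to 665 in IL-23-ear libraries, and its member Hmgb2, a DNA-bending protein that is also abundant in dividing cells, was at a mean of 244 CPM in control and 1226 in imiquimod-dorsal libraries. Of 11 genes of somatic mutation and class switching, 9 rose and 1 fell in imiquimod-dorsal, 7 rose and 0 fell in imiquimod-ear and 0 passed in IL-23-ear libraries.

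Markers of plasma cells moved with the Ighv total in the imiquimod-ear group. All 15 rose there, beside 14.3% of all genes, with a median log2 difference of 1.46 and a summed level of 4811 to 8086 CPM against 2319 to 2554 in control. In imiquimod-dorsal libraries 2 rose and 2 fell (1824 to 2700 CPM), and in IL-23-ear libraries 0 passed (2298 to 2762 CPM). Jchain, which links IgM pentamers, had log2 differences of 1.46 ± 0.21 in imiquimod-ear (edgeR's adjusted p = 0.00209) and -0.18 ± 0.20 in imiquimod-dorsal libraries (adjusted p = 0.464). Of 15 B cell markers 1 rose and 4 fell in imiquimod-ear libraries, and 1 rose and 3 fell in imiquimod-dorsal libraries, where 32.3% and 27.6% of all genes did. The part of these cells in the Ighv levels was not tested.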

How the data were processed

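The authors deposited 1 table of raw read counts per gene and library, as its whole numbers show. The submitters' processing notes name HISAT2 2.2.1, featureCounts 2.0.3, fastp 0.23.2, DESeq2 1.38.3 and StringTie 2.2.1 and the build GRCm39, without roles. The 624 unnamed loci of 22740 entries entered neither library sizes nor tests. The members, gene lists and tests were chosen with earlier results of these data known. The test was that of edgeR 4.0.16 under R 4.3.3 (quasi-likelihood F test, TMM scaling, filterByExpr with a minimum count of 10, all 14 libraries in 1 fit with 10 residual degrees of freedom). Benjamini-Hochberg adjustment ran over all 15159 genes, and calls were made at 0.05. On simulated counts for imiquimod-ear against control over 15159 genes, 199 of 200 genes changed by a log2 of 2 were recovered, with 10 false calls. Smaller differences were not simulated and the least abundant genes were left unchanged, so the run does not speak for those. Totals, evenness and family shares were given per library, with mean ± SD and no test. Log2 differences have their SE. The segments named were the 10 with the largest mean share, the leading segment of each library and, per comparison, the 4 largest rises and falls among called segments whose mean log2 CPM was 1 or more and whose groups did not overlap. Others are said to be chosen after their values were seen. Sequences and coordinates were read from the GRCm39 genome with GENCODE release 39, and identity was computed with Biopython 1.88. Alternatives were DESeq2 1.42.0, limma-voom (limma 3.58.1), RLE size factors, no filter on low counts, haemoglobin and immunoglobulin genes out of the scaling, a fit of the compared groups alone, a replicate block, other measures of evenness and usage, and each library left out in turn.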

Additional observations from a re-analysis of the deposited data

Results flagged for a closer look

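Of 82 groups of 4 libraries examined over 41 quantities, 1 had a library far from the others. Ighv1-59 was at 2.41 CPM in imiquimod-dorsal 2 and at 1.46 to 1.61 CPM in the other 3 imiquimod-dorsal libraries, a gap of 0.842 of the group's range against a critical value of 0.829. Chance alone gives about 1 such group in 20.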

How the results depend on the processing

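Labels give the libraries replicate numbers, which the groups share only in part, so a block on them is unbalanced. Same-numbered libraries did not deviate together over the 15159 genes tested: r ran from -0.41 to 0.26 over 13 pairs, with 1 over 0.1. The Ighv segments alone were not examined for this. With the replicate number as a block, 36 segments were called against control in imiquimod-dorsal, 36 in imiquimod-ear and 0 in IL-23-ear libraries, 38 between the imiquimod groups and 59 in IL-23-ear relative to imiquimod-ear, instead of 43, 75, 0, 54 and 72. All other settings kept these counts within 1.5 times: 29 to 46, 55 to 73, 0, 36 to 58 and 55 to 76 with 1 library left out. DESeq2 called 46, 75, 0, 62 and 75, and limma-voom 31, 72, 0, 53 and 68. No direction reversed. The effective number with the inverse Simpson index was 34.1 in control, 38.2 in imiquimod-dorsal, 39.5 in imiquimod-ear and 35.6 in IL-23-ear libraries. On that index both imiquimod groups still lay above control with no overlap, but IL-23-ear overlapped imiquimod-ear. For the alternatives that follow, a group is left out where its value stayed within its SD of the main value. With segments at least 98% identical summed, the effective number was 46.6 in control, 50.1 in imiquimod-dorsal and 47.3 in IL-23-ear libraries. Without the 12 segments at 0 in 1 library and at 30 counts or more in another, an alternative chosen after seeing the data, it was 46.8 in control and 50.0 in imiquimod-dorsal libraries. With TMM effective library sizes as denominator the Ighv share in control was 0.0614%. With the leading segments left out, family 1 held 26.1% in control, 31.8% in imiquimod-dorsal and 27.4% in IL-23-ear libraries, family 7 held 8.15% in control and 4.90% in imiquimod-dorsal libraries, and family 11 held 3.77% in control. Shares and evenness changed there by construction. Of 856 recomputed values for the 60 calls of named segments, 745 kept the call. Of the 60 calls, 28 were lost in at least 1 setting. The replicate block ended 20 of them, limma-voom 12 and the fit of the compared groups alone 11. Removing annotated pseudogenes was not run, since the table holds no Ighv pseudogene. Depth limits the segments near the 3-count floor, and the strain difference from the reference limits the naming of segments.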
